A study of Mus musculus with 16 samples.

Results

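Actinomycin D intercalates into DNA and stops RNA synthesis, so that an mRNA present before the drug can afterwards only persist or decay. The first hour of this treatment was followed in wild-type mouse bone marrow cells. The 4 count files concerned are the 2 labelled WT 1 h and the 2 labelled WT 0 h, chosen by genotype and time from the 16 of the series, which also holds 3 h and 5 h and a Nat10-deficient genotype. All groups come from bone marrow depleted of lineage-positive cells and kept in serum-free medium with SCF (10 ng/mL) and heparin among its additions. Actinomycin D was used at 5 µM, and haematopoietic stem cells (HSCs) were sorted at each time. The labels give the cell type as LT-HSCs, the long-term HSCs, but the sample titles name 32D cells, a myeloid line, and the difference could not be settled. Polyadenylated RNA was made into full-length Smart-seq2 libraries after equal amounts of ERCC, a set of synthetic spike-in RNAs, had been added to the total RNA.

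The WT 1 h files held 13157591 and 10051164 counts and the WT 0 h files 13633973 and 12383302. The labels call the 2 files of a group biological replicates, but their headers name the same alignment. Their counts differed by little more than sampling noise, with a chi-square per degree of freedom of 1.491 at 1 h and 1.498 at 0 h, against 208.1 and 232.3 between the times. Hence the adjusted p-values below measure the spread between the files of a group, which may be technical. HSC surface and receptor genes were well represented, with Kit at 674 and 678 CPM at 1 h and 702 and 709 CPM at 0 h. Genes of other cell types were present at both times, and those of several types were much higher at 1 h. Immunoglobulin genes together with Jchain took 28.0% and 27.8% of gene counts at 1 h, against 3.94% and 3.91% at 0 h. Levels are therefore given as CPM, counts scaled to a sum of 1000000 counts of all genes other than immunoglobulin and Jchain (the non-immunoglobulin scale). A second scale gives the same counts per ERCC count.

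How long an mRNA lasts is set largely by elements in its 3′ untranslated region (UTR). AU-rich elements built on ATTTA recruit proteins such as those of the Zfp36 family, which bring in deadenylases and so hasten decay. mRNAs of immediate-early transcription factors, of feedback inhibitors of cytokine and growth factor signalling, and of short-lived survival proteins carry such elements and are known for rapid decay. mRNAs for ribosomal proteins, translation factors and enzymes of energy metabolism are known to be long-lived.

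Of the members of the immediate-early and the feedback lists that were lower by at least 2-fold at 1 h and had at least 100 CPM at 0 h, 19 of 31 held the AU-rich heptamer TATTTAT in the 3′ UTR, and 27 of 31 held ATTTA. Of all 9589 protein-coding genes with at least 10 CPM and an annotated UTR, 28.1% held the heptamer and 67.5% held ATTTA. The 2 lists hold mRNAs known for such elements and were chosen with earlier results of these data known. Their higher shares are therefore no test, and UTR length was not matched. Each site below shows the first heptamer of the UTR, in capitals, within 30 bases of the transcript strand, for members of different function (GENCODE M21 transcripts, build GRCm38). All of these were lower by at least 2-fold at 1 h, but they were not taken by the size of the fall. Fosl2 (log2 change −2.95) and Irf1 (−2.32), which also hold the heptamer, fell more than Cish (−1.79) and Mcl1 (−1.26).
Socs3: ctttgcacataTATTTATatttatactcag
Csrnp1: cactctgaattTATTTATttttttatgttt
Zfp36: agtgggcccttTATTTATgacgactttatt
Btg2: aaatgaagagcTATTTATacatgttttttt
Fos: tgttttcaattTATTTATtaagatggattc
Cish: cagttatacagTATTTATttatttattctc
Mcl1: gaaaacatgtgTATTTATgaaggtggactt
The Fos site begins at base 656 of an 815-base UTR that holds 2 copies of the heptamer and 4 of ATTTA, overlapping ones included. The Zfp36 UTR, of 774 bases, holds 3 copies of the heptamer, the Cish UTR 3 and the Btg2 UTR 1. The Socs3 site lies at base 1397 of 1474, and the first of 3 in Mcl1 at base 70 of 2353.

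Across all genes most of the mRNA pool stayed within 2-fold of its 0 h proportion, and a short list of mRNAs lost most of its counts. On the non-immunoglobulin scale 5106 of 18112 genes tested were lower at 1 h (28.2% of those tested) and 7843 were higher (43.3%), by edgeR's quasi-likelihood test at an adjusted p under 0.05. With immunoglobulin counts kept in the scale, which shifts every gene by −0.41 in log2, the split was 8900 lower and 4994 higher. On the non-immunoglobulin scale 2161 were lower by at least 2-fold (11.9%) and 4537 were higher by at least 2-fold (25.0%). With the 2 files of each group summed and the spread taken from neighbouring times, 0 genes passed in either direction on either scale, with 729 at an unadjusted p under 0.05 on the non-immunoglobulin scale and 478 on the ERCC scale, against 11749 and 14404 called by DESeq2 on the files as they stand. Changes between times enter that spread, whose median coefficient of variation was 0.583, against 0.0625 with the 16 files. With 3 residual degrees of freedom little could pass, so nothing is concluded from the 0 calls. By level, averaged over the 4 files, 5.55% of 7150 genes between 10 and 100 CPM, 2.69% of 2192 between 100 and 1000 CPM and 10 of 85 from 1000 CPM upward (11.8%) were lower by at least 2-fold. Scarcer genes pass the filter on low counts through the time at which they are higher, so nothing is read from the size of their changes. They weigh on the shares over all genes used below. Of 6527 genes between 1 and 10 CPM, 17.1% were lower and 39.85% higher by at least 2-fold. Between 10 and 100 CPM 6.71% were higher by at least 2-fold, and at any size 2326 were lower and 2587 higher. Among genes with at least 20 CPM at 0 h, the 389 that were lower by at least 2-fold took 2.13% of non-immunoglobulin counts at 1 h and 8.15% at 0 h. The 80 of them that were lower by at least 4-fold took 0.917% at 1 h and 5.06% at 0 h. Genes that stayed within 2-fold took 90.6% at 1 h and 88.7% at 0 h.

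**Figure D1:**
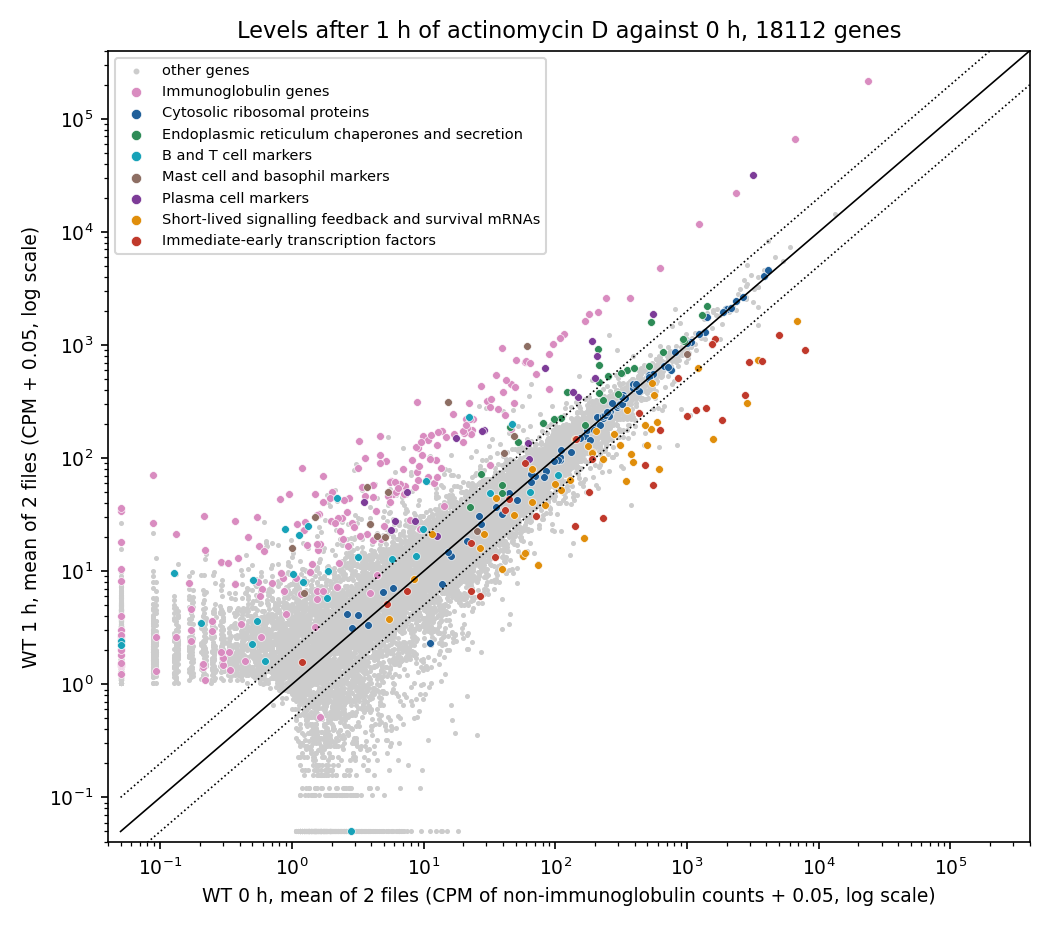
Mean CPM at WT 1 h against WT 0 h for the 18112 genes tested, both on log axes with 0.05 CPM added; the solid line marks equal levels and the dotted lines 2-fold. Of the immediate-early and feedback mRNAs, 19 of 32 and 21 of 42 were lower by at least 2-fold, against 11.9% of all genes. Ribosomal protein mRNAs lie along the solid line, and 210 of 212 immunoglobulin genes were higher by at least 2-fold, against 25.0% of all genes.

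Immediate-early transcription factors, made within minutes of a stimulus without new protein, were the list with the lowest median. Of 32 tested, 26 were lower (28.2% of all genes were), 1 was higher and 5 did not pass. By at least 2-fold 19 were lower, against 11.9% of all genes and 5.55% of those between 10 and 100 CPM. None was higher by that much. The median log2 change was −1.79, against 0.16 over all genes tested, and the list's summed level was 8726 and 8770 CPM at 1 h and 34865 and 35282 CPM at 0 h. Egr1, a zinc finger factor induced by growth signals (chr18:34992876-34998037, GRCm39, + strand), had 914 and 911 CPM at 1 h, against 7799 and 8043 CPM at 0 h. Its log2 change was −3.12 ± 0.02 (SE; adjusted p = 2.67e-87, edgeR quasi-likelihood). Its relative Egr3 had 59.9 and 56.2 CPM at 1 h, against 559.5 and 539.7 CPM at 0 h, a log2 change of −3.24. For both genes the 1 h files lay far below the 0 h files.

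The AP-1 subunits, which pair as Fos-Jun dimers, did not behave alike. Fos (chr12:85520664-85524047, GRCm39, + strand) had 1205 and 1225 CPM at 1 h, against 5018.5 and 4972 CPM at 0 h, and was 4.11-fold lower. Junb was 5.13-fold lower, with 728 and 724 CPM at 1 h against 3658 and 3787 CPM at 0 h. Fosl2 was 7.73-fold lower, with 29.7 and 29.5 CPM at 1 h against 225 and 233 CPM at 0 h. By contrast Jun itself had 1113 and 1132 CPM at 1 h and 1622 and 1651 CPM at 0 h, and was only 1.46-fold lower. Fosb had 1021 and 1019 CPM at 1 h and 1540.3 and 1570.0 CPM at 0 h, 1.52-fold lower. In each of these 5 subunits both files of 1 h lay below both files of 0 h, as they did for 35.0% of all genes tested.

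The orphan nuclear receptor Nr4a1 and the nuclear protein Csrnp1 also fell by more than 4-fold. Nr4a1 had 357 and 358 CPM at 1 h, against 2779 and 2764 CPM at 0 h, and was 7.74-fold lower. Csrnp1 was 8.47-fold lower, with 215 and 219 CPM at 1 h against 1827 and 1840 CPM at 0 h. Atf3, a stress-induced factor, had 88.9 and 84.2 CPM at 1 h, against 480 and 482 CPM at 0 h. Irf1, which also belongs to the interferon list, had 280 and 274 CPM at 1 h, against 1387 and 1381 CPM at 0 h. Myc, whose mRNA is a classical short-lived transcript, fell less than these, to 256 and 248 CPM at 1 h against 428.0 and 428.5 CPM at 0 h, 1.70-fold lower. Klf4, with 39.1 and 47.4 CPM at 1 h and 43.1 and 46.5 CPM at 0 h, and Hhex, with 143 and 150 CPM at 1 h and 147 and 138.5 CPM at 0 h, had overlapping files. Id2, an inhibitor of basic helix-loop-helix factors, was the one member that was higher, with 93.0 and 87.5 CPM at 1 h and 58.6 CPM in both files at 0 h.

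Feedback inhibitors and short-lived survival mRNAs were lower in 36 of 42 and higher in 3, beside 28.2% and 43.3% of all genes. By at least 2-fold 21 of 42 were lower, against 11.9% of all genes, and the median log2 change was −1.04. Socs3, which blocks Jak-Stat signalling (chr11:117856905-117860873, GRCm39, − strand), had 300 and 311 CPM at 1 h, against 2839 and 2863 CPM at 0 h, and was 9.36-fold lower. Gadd45g, a stress protein induced by cytokines, was 10.8-fold lower, with 146 and 149 CPM at 1 h against 1573 and 1590.3 CPM at 0 h. Dusp5, a phosphatase of Erk kinases, had 20.0 and 19.6 CPM at 1 h, against 164 and 168 CPM at 0 h. Zfp36, itself a protein that binds AU-rich elements, was 4.76-fold lower, with 725 and 737 CPM at 1 h and 3450 and 3499 CPM at 0 h. Btg2, an antiproliferative partner of the Ccr4-Not deadenylase, had 1620 and 1659 CPM at 1 h, against 6722 and 6833 CPM at 0 h, 4.14-fold lower. The survival protein Mcl1 was 2.39-fold lower, with 128 and 132 CPM at 1 h and 309 and 312 CPM at 0 h. In each of these 6 genes both files of 1 h were below both of 0 h.

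Other members of the same list kept much more of their mRNA. Nfkbia, the inhibitor of NF-kB, had 473 and 457 CPM at 1 h and 537 and 541 CPM at 0 h, 1.16-fold lower. The kinase Pim2 had 142 and 152 CPM at 1 h and 145 and 139 CPM at 0 h, and did not pass the test (adjusted p = 0.425, edgeR quasi-likelihood). Socs2, a close relative of Socs3, was 1.86-fold higher, with 21.75 and 20.99 CPM at 1 h and 10.9 and 12.2 CPM at 0 h. Within the feedback list the log2 changes ran from −3.43 in Gadd45g to 0.90 in Socs2.

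**Figure D2:**
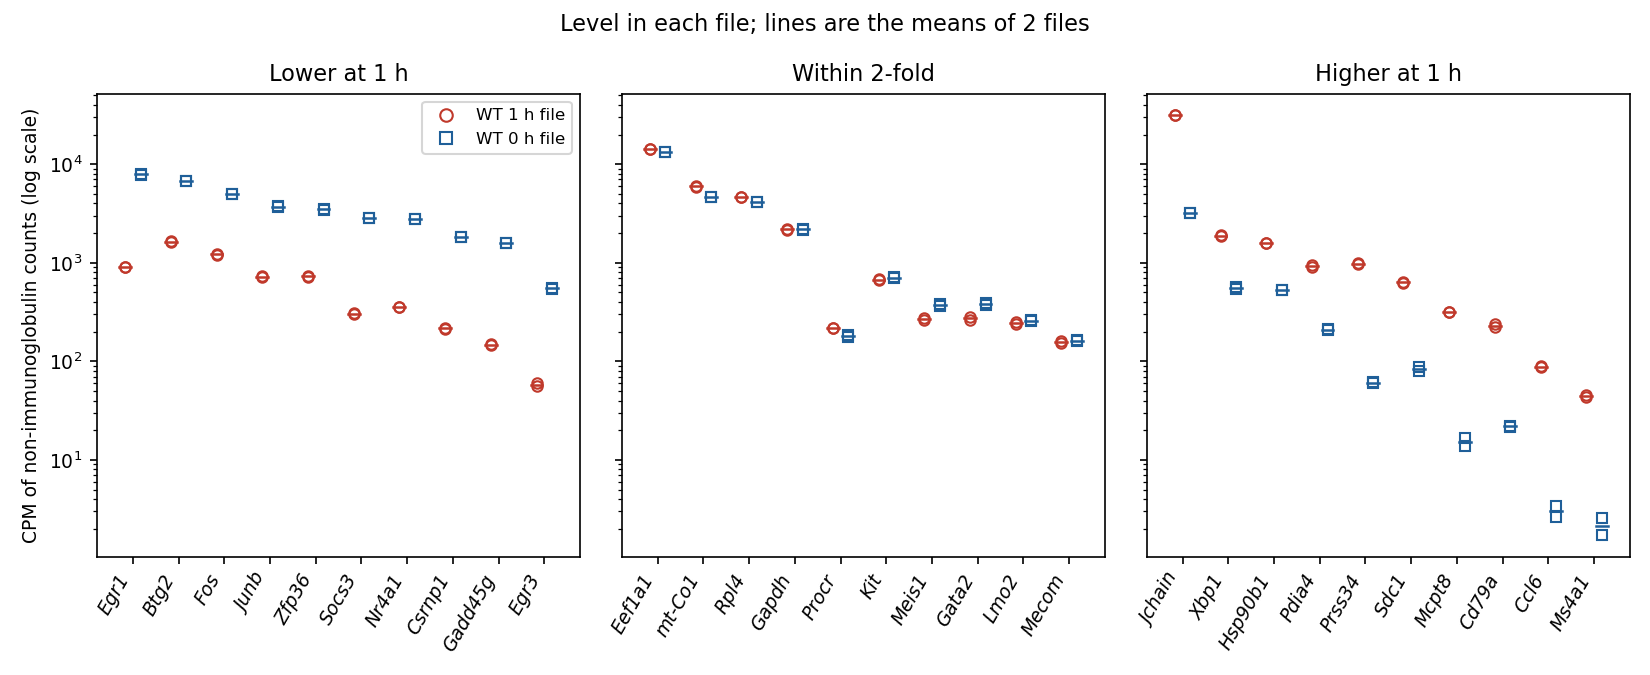
CPM (log axis) in each file for 30 genes, WT 1 h as circles on the left of each pair and WT 0 h as squares on the right, with lines at the means of 2 files. The 2 files of a time nearly coincide; Egr1 sits at 914 and 911 CPM at 1 h against 7799 and 8043 CPM at 0 h, the middle panel stays level within 2-fold, and Jchain, Prss34 and Ms4a1 are far higher at 1 h.

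By the size of the fall among genes with at least 20 CPM at 0 h, 14 genes led. They were Tnfrsf22, Ddias, Acer2, Shroom4, Gadd45g, Spry4, Phldb1, Rasgef1b, Egr3, Socs3, Egr1, Csrnp1, Dusp5 and Dusp8. Tnfrsf22 (chr7:143188543-143203398, GRCm39, − strand), a TRAIL receptor with a close paralogue next to it, had 3 and 2 counts at 1 h and 290 and 327 counts at 0 h, 78.9-fold lower. Ddias, a DNA damage response gene, had 7 and 5 counts at 1 h and 284 and 240 counts at 0 h. These 2 were the only genes with at least 20 CPM at 0 h and under 1 CPM at 1 h. Acer2, an alkaline ceramidase, was 13.8-fold lower and Shroom4, an actin-binding protein, 10.9-fold lower. These 4 were scarce, between 20.5 and 28.0 CPM in each file at 0 h. In the Nat10-deficient libraries their first-hour log2 changes were −0.06, 0.01, −0.59 and −0.17. Rasgef1b, a Ras-family exchange factor induced with immediate-early genes, was abundant, with 36.5 and 40.7 CPM at 1 h against 382 and 372 CPM at 0 h.

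The AU-rich heptamer was counted in the 3′ UTRs of the 9589 protein-coding genes with at least 10 CPM and an annotated UTR, on the sense strand alone, with TATTTAT holding ATTTA within it. It was present in 28.1% of them. Among the 561 that were lower by at least 2-fold it was present in 41.0%, among the 123 lower by at least 4-fold in 47.2%, and among the 702 higher by at least 2-fold in 28.6%. Genes lower by at least 2-fold made up 4.80% of those with no copy, 7.91% with 1, 8.83% with 2 and 11.6% with 3 or more. Longer UTRs hold more copies by length alone. With genes split into 3 equal parts by UTR length, the share in the shortest part lower by at least 2-fold was 5.53% with the heptamer and 3.33% without. In the middle part it was 11.3% with and 5.22% without, and in the longest 7.68% with and 6.94% without. Of the immediate-early genes 48.3% held it, of the feedback genes 59.0% and of the ribosomal protein genes 2.78%. These are shares of genes, with no test, and a match is not a site of binding.

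**Figure D3:**
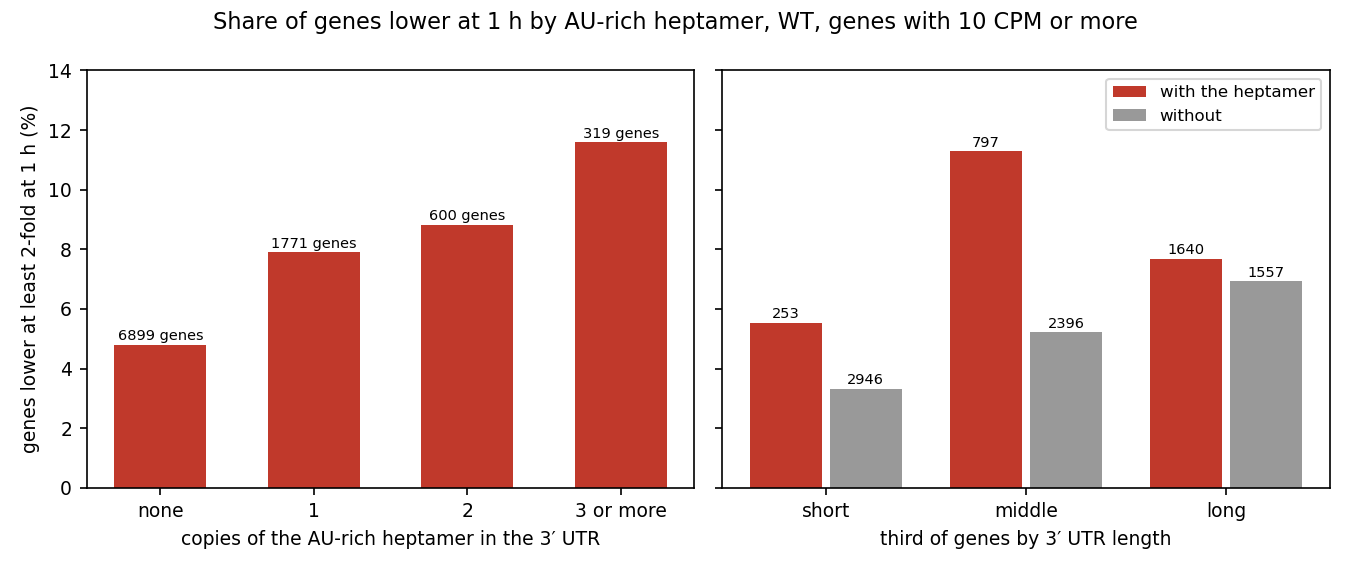
Percent of protein-coding genes lower by at least 2-fold at WT 1 h, by the number of AU-rich heptamers in the 3′ UTR (left) and by presence of the heptamer within each of 3 parts by UTR length (right), with the number of genes over each bar. The share is 4.80% with no copy and 11.6% with 3 or more; the gap between bars is widest in the middle part and narrowest in the longest.

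Ribosomal protein mRNAs, by contrast, stood almost exactly where the whole mRNA pool stood. Of 78 tested 17 were lower and 19 higher, with a median log2 change of −0.00 and quartiles of −0.09 and 0.10. Rpl4 had 4679 and 4613 CPM at 1 h and 4092 and 4132 CPM at 0 h. The acidic stalk protein Rplp0 had 4087 and 4093 CPM at 1 h and 3806 and 3857 CPM at 0 h. Rps10 was the one member lower by at least 2-fold, at 2.28 and 2.27 CPM at 1 h and 10.8 and 11.4 CPM at 0 h. It is uncertain, since near-identical processed copies can take its reads. Translation factors had 13 lower and 12 higher of 30, none by 2-fold; Eef1a1, which delivers aminoacyl-tRNA to the ribosome, had 14353 and 14359 CPM at 1 h and 13282 and 13354 CPM at 0 h. Of 34 proteasome subunits 7 were lower and 14 higher, none by 2-fold. The counts of these lists stand beside 28.2% lower and 43.3% higher over all genes, 11.9% and 25.0% by at least 2-fold.

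Energy metabolism genes were mostly within 2-fold. Of 40 nuclear-encoded oxidative phosphorylation genes 3 were lower, against 28.2% of all genes, and 17 were higher, a share close to the 43.3% of all genes. Of 12 mRNAs made in mitochondria, by a polymerase of their own, 6 were higher and none lower, with a median log2 change of 0.31 that becomes −0.10 when immunoglobulin counts enter the scale. Mt-Co1 had 5927 and 5970 CPM at 1 h and 4658 and 4613 CPM at 0 h. In glycolysis 10 of 24 were lower and 8 higher, beside 28.2% and 43.3% of all genes. The enzyme Gapdh had 2208.5 and 2169 CPM at 1 h and 2178 and 2174.5 CPM at 0 h, overlapping files. Hexokinase Hk2 was 3.25-fold lower, with 41.1 and 43.7 CPM at 1 h and 138 and 137 CPM at 0 h, and the glucose transporter Slc2a1 2.25-fold lower, with 81.5 and 81.6 CPM at 1 h and 181 and 185 CPM at 0 h. Their relatives moved less: Hk1 had 338 and 339.5 CPM at 1 h and 384 and 403 CPM at 0 h, and the transporter Slc2a3 had 297 and 287 CPM at 1 h and 297 and 298 CPM at 0 h and did not pass the test.

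Among the transcription factors of HSC identity 14 of 27 were lower and 3 higher, beside 28.2% and 43.3% of all genes, with a median log2 change of −0.23. Only 2 of the 27 were lower by at least 2-fold (7.41%, against 11.9% of all genes). Gata2 had 283 and 265 CPM at 1 h, against 375 and 391 CPM at 0 h, and Meis1, a Hox cofactor, had 260 and 274 CPM at 1 h, against 362 and 378 CPM at 0 h; both were 1.39-fold lower. Mecom, needed for HSC maintenance, had 161 and 152 CPM at 1 h and 164 and 159.5 CPM at 0 h (adjusted p = 0.496, edgeR quasi-likelihood), and Lmo2 250 and 238 CPM at 1 h and 260 and 259 CPM at 0 h. Fli1 had 246.5 and 245.5 CPM at 1 h and 245 and 237.5 CPM at 0 h. Further down the list, Nkx2-3 was 2.07-fold lower, Gfi1b, a repressor shared with megakaryocytes and red cells, 1.83-fold lower and Mycn 1.76-fold lower. Hoxb4 and Nkx2-3 were the 2 that fell by at least 2-fold, and Hmga2 and Gfi1 the 2 that were higher by that much. Gfi1 had 5.11 and 5.82 CPM at 1 h and 1.17 and 2.05 CPM at 0 h. The median of the HSC factors lay between those of the feedback and the ribosomal protein mRNAs.

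Receptors and surface markers of stem and progenitor cells were split, with 9 of 30 lower, none by 2-fold, and 12 higher, 5 of them by 2-fold. Over all genes 28.2% were lower and 43.3% higher, so the split lies near that of all genes. By at least 2-fold 11.9% of all genes were lower and 25.0% higher. Procr, the EPCR marker of long-term HSCs, had 218 and 217 CPM at 1 h and 175.5 and 183 CPM at 0 h. Slamf1, the CD150 antigen, was 1.77-fold lower, with 61.4 and 63.4 CPM at 1 h and 110 and 111 CPM at 0 h, and the channel Trpc6 1.95-fold lower. The 5 that were higher by at least 2-fold were Cxcr4, Csf2rb, Cd48, Ly6a and Thy1, all of them also expressed on lymphoid or mature blood cells. Ly6a, the Sca-1 antigen, had 169 and 162 CPM at 1 h and 45.5 and 43.8 CPM at 0 h, 3.71-fold higher. B and T cell markers summed 2.81-fold higher at the same time, and their part in these values was not tested.

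Cell cycle and chromatin genes had more members lower than higher, beside 28.2% lower and 43.3% higher over all genes, and few changed by 2-fold. Of 34 S-phase genes 21 were lower and 4 higher (median log2 change −0.23), and of 37 G2 and M genes 17 were lower and 6 higher (median −0.11). Clspn, the claspin checkpoint adaptor, was the S-phase gene that fell most, with 9.68 and 10.6 CPM at 1 h against 40.4 and 49.0 CPM at 0 h. Of 33 chromatin regulators 18 were lower and 6 higher, and the demethylase Kdm6b was 2.38-fold lower, with 95.7 and 88.9 CPM at 1 h and 222.5 and 219 CPM at 0 h. RNA decay factors had 19 of 42 lower and 9 higher. Among them Dcp1a, a decapping cofactor, was 2.78-fold lower, with 30.2 and 27.1 CPM at 1 h and 78.3 and 82.1 CPM at 0 h, while the exonuclease Xrn1 was 1.93-fold higher, with 82.5 and 78.6 CPM at 1 h and 42.5 and 41.0 CPM at 0 h. Zinc finger genes of the Zfp, Zkscan, Zscan and Zbtb names, known as a class with short-lived mRNAs, had 159 of 401 lower and 123 higher (median −0.05). At 10 CPM or more, 14.5% of the 255 with a UTR were lower by at least 2-fold, against 5.85% of all 9589, and 12.2% were higher by at least 2-fold, against 7.32% of all.

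The stress lists differed in direction, read against the 28.2% of all genes that were lower and the 43.3% that were higher. Of 27 p53 targets 15 were lower and 7 higher. Btg2, Cdkn1a and Phlda3 were lower by at least 2-fold; Btg2 and Cdkn1a stand in the feedback list too, and Phlda3 averaged 0.893 CPM at 1 h and 2.83 CPM at 0 h. Cdkn1a, the p21 inhibitor of cyclin-dependent kinases, had 123 and 136 CPM at 1 h, against 501 and 492 CPM at 0 h. Trp53inp1, which promotes p53 activity, was 4.46-fold higher, with 144 and 153 CPM at 1 h and 35.1 and 31.1 CPM at 0 h. Of 25 integrated stress response genes 9 were lower and 10 higher; the phosphatase subunit Ppp1r15a was 1.95-fold lower, with 604 and 650.0 CPM at 1 h and 1178 and 1262 CPM at 0 h, and the amino acid transporter chain Slc3a2 3.06-fold higher, with 901 and 900 CPM at 1 h and 293.5 and 294 CPM at 0 h. Heat shock genes had 7 of 17 lower and 5 higher. The cochaperone Dnajb1 was 2.28-fold lower, with 1515 and 1509 CPM at 1 h and 3451 and 3457 CPM at 0 h. Interferon response genes had 7 of 31 lower and 15 higher, apoptosis regulators 4 of 25 lower and 10 higher, SR splicing factors 4 of 17 lower and 5 higher, and histones 3 of 24 lower and 11 higher. Among 18 long noncoding RNAs 8 were lower and 6 higher, and nuclear Malat1 was 2.16-fold higher, with 310 and 314 CPM at 1 h and 145 and 144 CPM at 0 h.

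**Figure D4:**
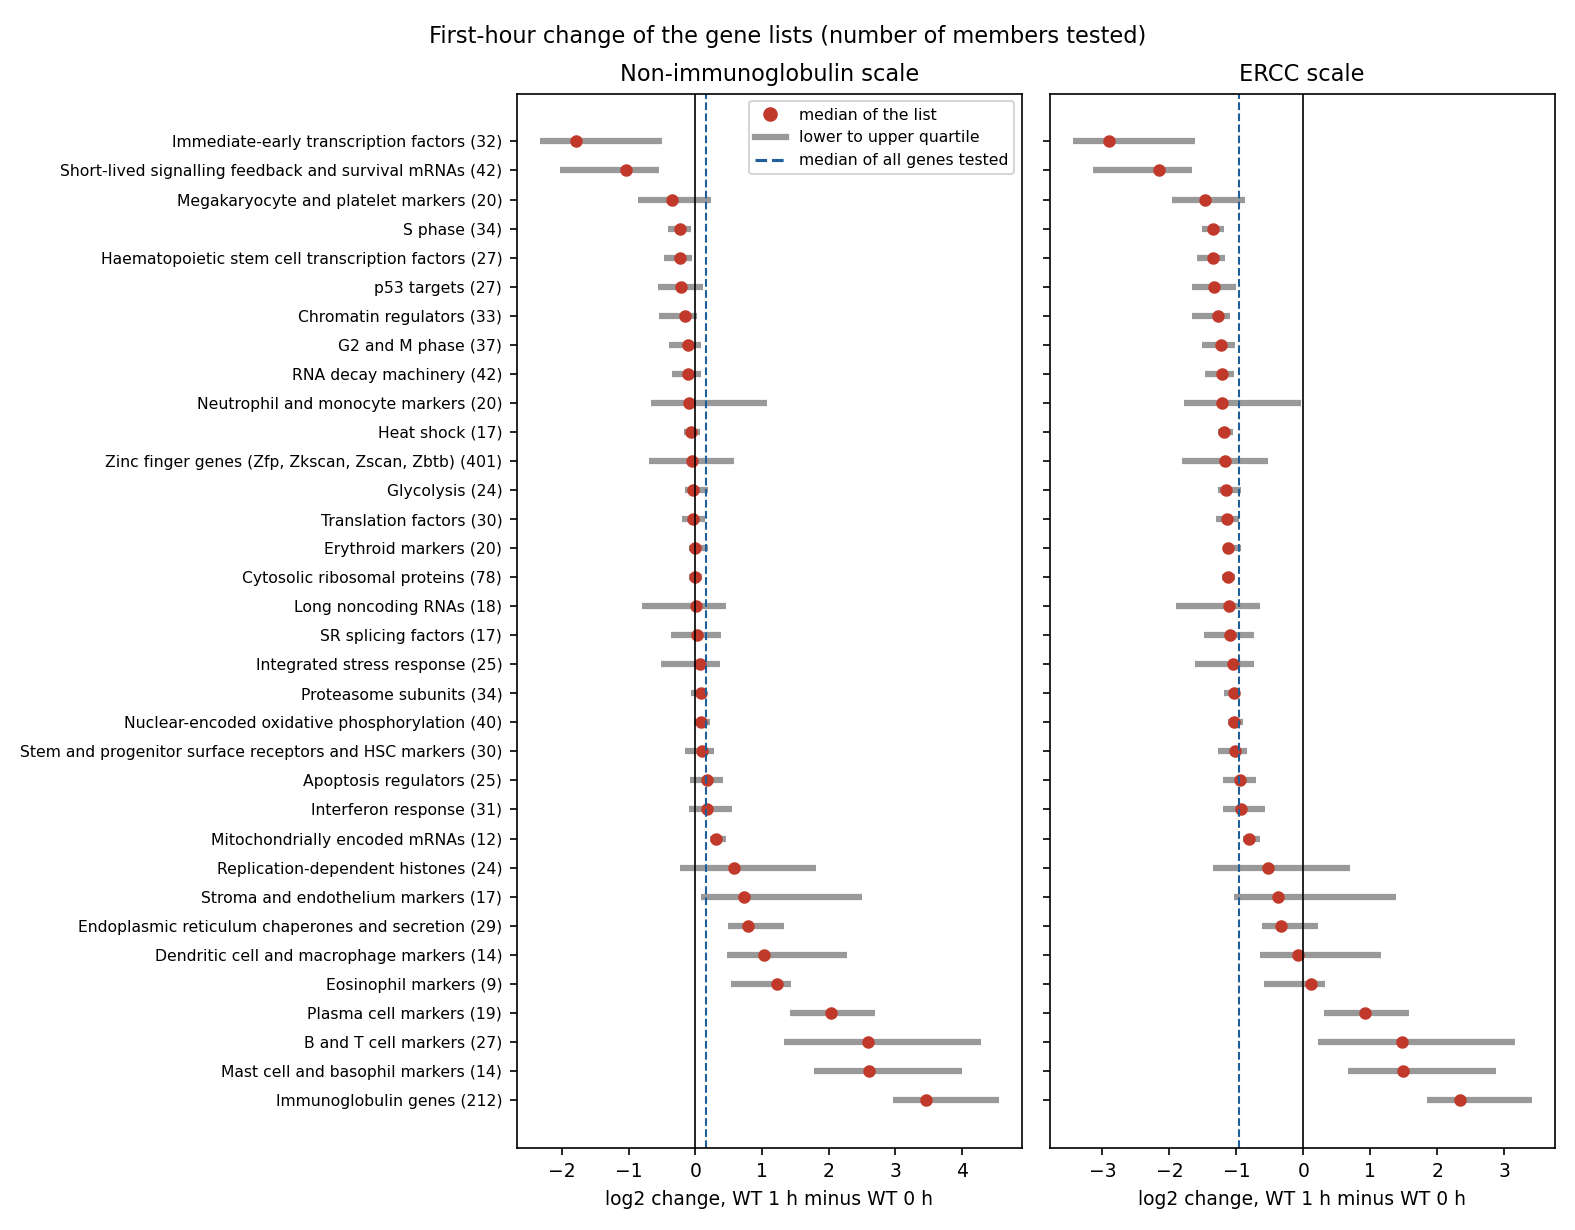
Median (points) and quartiles (grey bars) of the log2 change, WT 1 h minus WT 0 h, for each gene list, with the number of members tested in brackets, on the non-immunoglobulin scale (left) and per ERCC count (right); the dashed line is the median of all genes tested. The immediate-early list is lowest at −1.79 and −2.91, ribosomal protein genes sit at −0.00 and −1.12, and immunoglobulin genes are highest at 3.46 and 2.34.

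Among the mRNAs much higher at 1 h were markers of cells other than HSCs, taken from lists chosen with earlier results of these data known. Genes outside the lineage lists were higher too, such as Trp53inp1 (4.46-fold) and the noncoding Mir17hg (4.28-fold). Of 212 immunoglobulin genes tested, 211 were higher and 1 lower, with a median log2 change of 3.46. Jchain, which joins secreted IgM and IgA, had 31600 and 31901 CPM at 1 h and 3177 and 3170 CPM at 0 h. All 19 plasma cell markers tested were higher (43.3% of all genes were), and their summed level was 38135 and 38511 CPM at 1 h and 4910 and 4964 CPM at 0 h, 7.76-fold higher and mostly Jchain. Sdc1, the plasma cell antigen CD138, had 625 and 638.5 CPM at 1 h and 79.6 and 88.2 CPM at 0 h, with both files of 1 h above both of 0 h as in 51.0% of all genes. Xbp1, the factor that drives antibody secretion, had 1858 and 1892 CPM at 1 h and 548 and 564 CPM at 0 h. The marker Mzb1 was not among the genes tested. Mzb1 and the mast cell protease Mcpt4 had 0 counts in both WT 0 h files. At 1 h Mzb1 had 7 and 4 counts and Mcpt4 10 and 3, so both stayed near the floor. In bulk RNA a change in the number of cells of a type and one in RNA per cell cannot be told apart.

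Other mature lineages moved with them, beside 28.2% lower and 43.3% higher over all genes. Of 27 B and T cell markers 24 were higher and 3 lower, with a summed level of 913 and 907 CPM at 1 h and 329 and 319 CPM at 0 h. The B cell receptor component Cd79a had 237 and 223 CPM at 1 h and 21.6 and 22.3 CPM at 0 h. Ms4a1, the CD20 antigen, had 43.4 and 45.8 CPM at 1 h and 1.71 and 2.57 CPM at 0 h. Of 14 mast cell and basophil markers 12 were higher and 1 lower, summing to 2655 CPM in both files at 1 h and 1217 and 1216.5 CPM at 0 h. The basophil protease Mcpt8 was 20.8-fold higher, with 314 and 319 CPM at 1 h and 13.9 and 16.6 CPM at 0 h. Prss34, another basophil protease, had 979 and 984.5 CPM at 1 h and 60.6 and 61.1 CPM at 0 h, whereas Mcpt4, Tpsb2, Tpsab1 and Cma1, which define mature mast cells, were too low to be tested.

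The remaining lineages were mixed, read against the 28.2% of all genes that were lower and the 43.3% that were higher. Of 14 dendritic cell and macrophage markers 11 were higher and 2 lower, and of 9 eosinophil markers 7 were higher and none lower. The lists overlap: of the higher eosinophil markers, Prg2 also stands in the plasma cell list and Alox15 in the mast cell and basophil list. Neutrophil and monocyte markers had 8 of 20 lower and 7 higher; the granule proteins Mpo, with 2203 and 2143 CPM at 1 h and 3432 and 3486 CPM at 0 h, and Elane, with 989 and 959 CPM at 1 h and 1537 and 1566 CPM at 0 h, were both 1.59-fold lower. Others of that list were higher. Cd68, a lysosomal protein of macrophages, had 57.3 and 51.6 CPM at 1 h and 11.4 and 13.1 CPM at 0 h, 4.47-fold higher. Csf1r was 4.32-fold, Ly6c2 3.91-fold and Ngp 3.00-fold higher, and Mmp9 had no counts at 0 h. Ly6c2 is also a member of the plasma cell list. Erythroid markers had 5 of 20 lower and 6 higher, and the carbonic anhydrase Car2 had 3338 and 3248 CPM at 1 h and 3449 and 3439.5 CPM at 0 h. Megakaryocyte and platelet markers had 11 of 20 lower and 6 higher. Stroma and endothelium markers had 4 of 17 lower and 10 higher, with a summed level of 244 and 259 CPM at 1 h and 263 and 269 CPM at 0 h.

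Chaperones and translocation factors of the endoplasmic reticulum, which plasma cells hold in excess, were higher in 29 of 29, 12 of them by at least 2-fold, with a median log2 change of 0.79. Over all genes 43.3% were higher, 25.0% by at least 2-fold. Pdia4, a disulphide isomerase, was 4.40-fold higher, with 910 and 940 CPM at 1 h and 208 and 212 CPM at 0 h. Hsp90b1 was 3.03-fold higher, with 1603 and 1600.5 CPM at 1 h and 527 and 532 CPM at 0 h. Hspa5, the BiP chaperone, had 2202.5 and 2236 CPM at 1 h and 1423 and 1393 CPM at 0 h. The least change was in the lectin chaperone Canx, 1.16-fold higher. The part of the 7.76-fold higher plasma cell sum in these values was not tested.

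The 14 genes with the largest rise among those with at least 20 CPM at 1 h were Ccr1, Slc4a3, Cacna1e, Ccl6, Lilr4b, Il7r, Cyp4f18, Fut1, Pld4, Il5ra, Ms4a1, Mcpt8, Cyp11a1 and Nox1. Il7r, Ms4a1, Mcpt8, Cyp11a1 and Il5ra also stand in the lymphoid, basophil or eosinophil lists. Ccr1, a chemokine receptor of myeloid cells, had 250 and 187 counts at 1 h and none at 0 h, which is at least 220.1-fold higher against a floor of 3 counts over the WT 0 h files. The chemokine Ccl6 had 89.3 and 87.1 CPM at 1 h and 2.64 and 3.42 CPM at 0 h. Slc4a3, an anion exchanger, had 184 and 168 counts at 1 h and 1 and 0 at 0 h. Lilr4b, a leukocyte receptor with a close paralogue, had 153 and 156 CPM at 1 h and 5.68 and 4.88 CPM at 0 h.

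Per ERCC count, the mRNA other than immunoglobulin was lower at 1 h. There were 23.9 and 24.2 non-immunoglobulin counts per ERCC count at 1 h, against 51.5 and 52.8 at 0 h, a ratio of 0.461. Immunoglobulin with Jchain went the other way, with 9.30 and 9.29 counts per ERCC count at 1 h and 2.11 and 2.15 at 0 h, a ratio of 4.36. On this scale 12346 genes were lower (68.2%) and 3196 higher (17.6%), and 8635 were lower by at least 2-fold (47.7%). Of the 7487 genes with at least 20 CPM at 0 h, immunoglobulin left out, the median had 45.4% of its 0 h level left, with quartiles of 36.7% and 55.1%. Less than 25% was left of 507 of them (6.77%), and more than the 0 h level was found for 107 (1.43%).

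The spike-in scale lies −1.12 in log2 from the first scale, apart from genes with few counts, and the lists keep the same order by median. Immediate-early genes had a median of 13.3% left, the feedback list 22.5%, HSC transcription factors 39.4%, ribosomal protein genes 46.0%, HSC surface markers 49.4%, mitochondrial mRNAs 57.2%, endoplasmic reticulum chaperones 79.6% and plasma cell markers 189.3%. Of the immediate-early list 31 of 32 were lower on this scale, and of ribosomal protein genes 77 of 78, beside the 68.2% of all genes. Gadd45g had 4.29% left, Egr3 4.88%, Socs3 4.93%, Egr1 5.31% and Fos 11.2%. Kit had 44.2% left, Gapdh 46.4%, Eef1a1 49.7% and mt-Co1 59.2%. Percent left is a ratio of counts per ERCC count, so it also follows how much RNA each sample gave. That part was not tested, and these values are not half-lives. The scale is the sum over ERCC entries. Of the 92 entries 30 had at least 50 counts in each file, and their own log2 ratios had an SD of 0.32, with a lowest of 0.13 and a highest of 1.70.

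**Figure D5:**
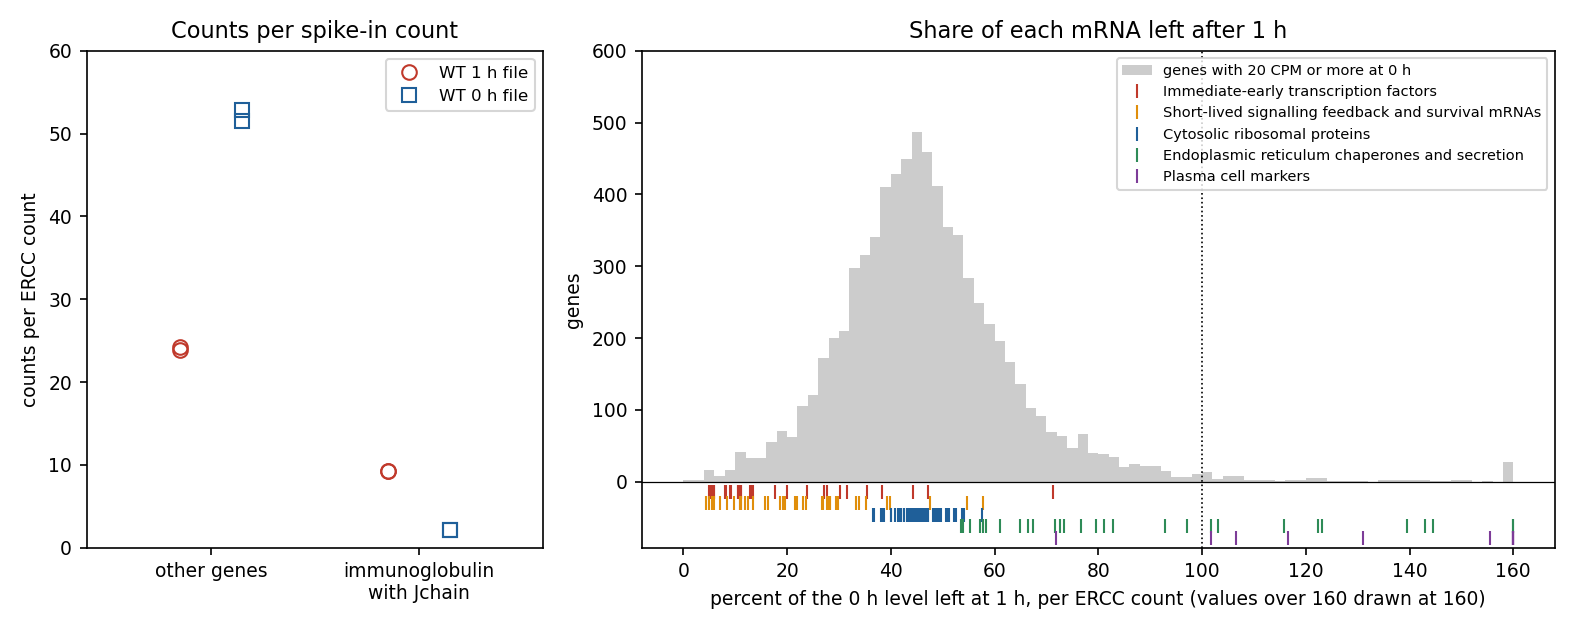
Left, counts per ERCC count of immunoglobulin genes with Jchain and of all other genes, in each WT 1 h file (circles) and WT 0 h file (squares). Right, distribution of the percent left at 1 h per ERCC count over genes with at least 20 CPM at 0 h, with ticks for members of 5 lists; the median is 45.4%, immediate-early ticks lie mostly under 50%, and plasma cell ticks mostly over 100%.

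The same hour in the Nat10-deficient libraries, which share no file with these, was set beside it. Nat10, the RNA acetyltransferase that the genotype concerns, had 132.6 and 142 CPM at 1 h and 108 CPM in both files at 0 h in WT, and the libraries labelled Nat10-deficient held 102 and 108 CPM at 1 h and 118 and 122 CPM at 0 h, so gene-level counts did not show its loss and the label is taken as given. Of the 7487 genes with at least 20 CPM at WT 0 h, 389 were lower by at least 2-fold in WT and 393 in the Nat10-deficient set, 5.20% and 5.25% of these genes, and 161 were lower in both, 41.4% of the WT list and 41.0% of the other. Of the 80 that were lower by at least 4-fold in WT, 49 were lower by at least 2-fold there too. Among the 7514 genes with at least 20 CPM at WT 1 h, a level that a rise in WT itself helps genes reach, 427 were higher by at least 2-fold in WT (5.68%) and 53 in the other genotype (0.705%). Of these 25 were shared, 5.86% of the WT list and 47.2% of the other.

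The first-hour change differed between the genotypes (WT minus Nat10-deficient, edgeR quasi-likelihood, adjusted p under 0.05) for 4489 genes with a lower value in WT (24.8%) and 6359 with a higher one (35.1%). Per ERCC count the split was 2469 lower (13.6%) and 8805 higher (48.6%) in WT. ERCC took 2.92% and 2.90% of counts at 1 h and 1.83% and 1.79% at 0 h in WT, but 0.0584% and 0.0587% at 1 h and 0.0226% and 0.0221% at 0 h in the Nat10-deficient set, and the part of this in the split was not tested. Immediate-early genes had a median log2 change of −1.79 in WT and −1.29 in the Nat10-deficient libraries, with 17 of 32 differing toward a lower WT value and 7 toward a higher one. The feedback list had −1.04 in WT and −1.22 in the Nat10-deficient libraries, with 14 of 42 lower and 15 higher in WT. Plasma cell markers had 2.04 in WT and 0.25 in the Nat10-deficient libraries, higher in WT for 18 of 19, and mast cell and basophil markers 2.60 in WT and 0.56 in the others, higher in WT for 12 of 14. Immunoglobulin genes had 3.46 in WT and 0.40 in the Nat10-deficient libraries. Ribosomal protein genes had −0.00 in WT and 0.19 in the others, lower in WT for 55 of 78; per ERCC count the order turned, with −1.12 in WT and −1.24 in the others. The immediate-early and feedback lists kept their order per ERCC count, with −2.91 and −2.15 in WT and −2.72 and −2.66 in the others, and the plasma cell list had 0.92 in WT and −1.18 in the others.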

How the data were processed

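Polyadenylated RNA with ERCC spike-ins was sequenced as Smart-seq2 libraries, and the authors deposited whole-number counts per gene for each of 16 files. Per the file headers, counts came from featureCounts 1.6.3 without strand, for properly paired fragments, and the 2 files of a group name the same alignment. Per the submitters' processing notes, STAR and build GRCm39 were used. WT 1 h was compared with WT 0 h by edgeR 4.0.16 (quasi-likelihood, 8 groups in 1 fit, filterByExpr on the 4 WT files, Benjamini-Hochberg over 18112 genes at 0.05). Libraries were scaled on gene counts without immunoglobulin and Jchain (CPM) and, separately, on summed ERCC counts. Total counts were 10051164 to 13633973 per file. Names and UTRs came from GENCODE M21, which held 94.1% of gene IDs. Alternatives were DESeq2 1.42.0, TMM, all gene counts, no filter, summed files, the replicate block and leaving out each file. On simulated counts edgeR recovered 85% of 2-fold and 100% of 4-fold changes. The genes described are the largest changes from 20 CPM, the most abundant genes, and the most abundant and most changed members of each list; the rest were chosen after their values were seen. Members and lists were chosen with earlier results of these data known. Same-numbered files did not deviate together (r = 0.023).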

Additional observations from a re-analysis of the deposited data

Results flagged for a closer look

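Of 93 genes with values above, 13 changed in opposite directions in the 2 genotypes in the first hour on the non-immunoglobulin scale. Each change and the difference itself passed the edgeR quasi-likelihood test. Higher in WT and lower in the Nat10-deficient set were Gfi1 (log2 changes of 1.76 and −0.70, a difference of 2.46), Trp53inp1 (2.16 and −0.32, a difference of 2.48), Socs2 (0.90 and −1.002, a difference of 1.90) and Xrn1 (0.95 and −0.40, a difference of 1.35). Lower in WT and higher in the Nat10-deficient set were Clspn (−2.14 and 0.67, a difference of −2.81), Gfi1b (−0.87 and 0.43, a difference of −1.30), Elane (−0.67 and 0.38, a difference of −1.05) and Mpo (−0.67 and 0.32, a difference of −0.99). Smaller differences of that kind were −0.44 in Car2 and −0.28 in Hk1. For Mmp9 the fitted difference was 8.96, which depends on the prior count because WT 0 h held no counts. The other 2 were Lilr4b and Slc4a3. Per ERCC count Mpo was −1.79 in WT and −1.11 in the Nat10-deficient set, and Elane −1.79 and −1.05. Car2 was −1.18 and −1.06, and Hk1 −1.33 and −1.37, so each of these was lower in both. The Hk1 difference was 0.04 on that scale and did not pass the test. In WT per ERCC count Socs2 was −0.22, Xrn1 −0.17 and Clspn −3.255, so Socs2 and Xrn1 were not higher on that scale. The Nat10-deficient set had a mean of 1540 non-immunoglobulin counts per ERCC count at 1 h and 4156 at 0 h. Its changes therefore lie lower on that scale too, and the rises of Clspn and Gfi1b in it are not kept. Trp53inp1 stayed opposite per ERCC count, at 1.04 and −1.755.

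Lilr4b, a leukocyte receptor gene, had 153 and 156 CPM at 1 h and 5.68 and 4.88 CPM at 0 h in WT. The Nat10-deficient set had 25.2 and 23.5 CPM at 1 h and 43.3 and 45.5 CPM at 0 h. The difference in log2 change, WT minus Nat10-deficient, was 5.73. It has a near-identical neighbour, so its reads are uncertain.

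Slc4a3 had 184 and 168 counts at 1 h and 1 and 0 at 0 h in WT, whereas the Nat10-deficient set had 12 and 10 counts at 1 h and 47 and 49 at 0 h. The fitted difference in log2 change was 10.54, a value that depends on the prior count because WT 0 h held 1 count. The WT ratio itself was 531.8, with an exact 95% interval for counting error from 94.8 to 2.106e+04.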

How the results depend on the processing

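The counts of genes called depended most on how the files of a group were treated. Summing them left 0 calls in each direction on both scales, with lowest adjusted p-values of 0.937 (non-immunoglobulin) and 0.515 (ERCC) by edgeR. The spread then includes changes between times, so these 0 calls do not show that no gene changed. Without the filter on low counts, 4194 genes were lower and 7675 higher by at least 2-fold on the non-immunoglobulin scale, and 5176 were higher, 4888 of them by at least 2-fold, on the ERCC scale. Scaling on all gene counts gave 8900 lower, 4994 higher and 3324 lower by at least 2-fold. Restricting the genes to those with at least 20 CPM at 1 h or 0 h, chosen after seeing the data, gave 2806 lower and 3232 higher, 389 and 564 by at least 2-fold; on the ERCC scale it gave 7561 lower and 370 higher, 4761 and 235 by at least 2-fold. Leaving out each file gave 4465 to 4696 lower and 7016 to 7289 higher. The difference between genotypes had 2469 genes lower in WT on the ERCC scale. With the replicate block, 5111 genes were lower and 7844 higher; the numbers do not pair the files (r = 0.023).

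Under all gene counts 9 list medians turned negative, with the mitochondrial list (−0.10), interferon (−0.23), apoptosis (−0.24), HSC surface (−0.31), oxidative phosphorylation (−0.33), proteasome (−0.33), integrated stress (−0.34), SR factors (−0.39) and long noncoding RNAs (−0.41). So did Hhex (−0.38), Pim2 (−0.37), Gapdh (−0.41), Eef1a1 (−0.31), Rplp0 (−0.32), Rpl4 (−0.24), mt-Co1 (−0.054), Fli1 (−0.39), Procr (−0.14) and Canx (−0.20). Gapdh was also −0.062 under TMM and −0.10 under DESeq2, and Rplp0 −0.0104 under DESeq2. These follow from the shift of the scale. The spike-in scale is limited by the spread of its entries and by how much RNA each sample gave. Genes under 1 CPM are limited by their counts.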
